A study of Mus musculus with 14 samples.

Results

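Expression of 10 genes of the Ms4a family and the related Tmem176 pair was measured by bulk RNA-seq in tumors of CT26, a line of colon carcinoma cells that grows in Balb/c mice. The genes were Ms4a4a, Ms4a4b, Ms4a4c, Ms4a6b, Ms4a6c, Ms4a6d, Ms4a7, Ms4a8a, Tmem176a, and Tmem176b. They are CD20-like proteins of myeloid and T cells and were selected on their measured levels (CPM and TPM) in these same 3 groups. Their differences between groups, and whether a fit called them, are therefore given as descriptions and without p-values. All 10 passed the filter on low counts, among 16287 genes tested of 53801 in the tables.

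Barcoded CT26 cells were injected under the skin of both flanks of young adult female mice, which then received control IgG or an antibody against PD-1, an inhibitory receptor of T cells. The study called anti-PD-1 tumors responders or non-responders from their final size, so a group is also a size class and treatment was given to the whole animal. There were 5 control IgG tumors from 4 mice (14L, 14R, 16R, 17R, 20R), 5 anti-PD-1 responders from 4 mice (24L, 26R, 30L, 30R, 35L), and, from 3 mice, 4 non-responders to anti-PD-1 (29L, 32R, 33L, 33R). The number is the mouse and the letter the flank, so that mice 14, 30, and 33 gave a pair of tumors each. All groups carried the same barcoded line in the same strain. Each tumor was 1 library of whole tissue. In such tissue, fewer cells of a type and less RNA per cell cannot be told apart. Non-responder 33R and control IgG tumor 14R stood apart from their groups. The chi-square per gene was 134.8 to 195.8 between 33R and the other non-responders, against 32.8 to 37.8 among those, and 67.1 to 90.2 between 14R and the other control IgG tumors, against 21.2 to 38.1 among those.

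Proteins of the MS4A family cross the membrane 4 times, as CD20 does, and sit beside immune receptors whose signals they modulate. Most members are restricted to subsets of leukocytes, and in tumors several mark macrophages. TMEM176A and TMEM176B share this layout, lie in intracellular membranes of dendritic cells and macrophages as cation channels, and TMEM176B restrains the NLRP3 inflammasome. The study also reported higher Tmem176b RNA in a cultured CT26 line that resisted checkpoint blockade than in the parental line. The share of the cancer cells in the levels of these whole tumors was not tested. The comparisons ask how these genes stood in tumors that responded to PD-1 blockade, did not respond, or received control IgG.

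The 8 Ms4a genes lie in a cluster of 19 Ms4a genes over 679 kb of chromosome 19, from 10962293 to 11640851 in mm10. Ms4a8a lies at 11067471 to 11081102, Ms4a7 at 11321039 to 11336146, and Ms4a6d at 11586604 to 11604849, all on the minus strand. Ms4a4a (11375523 to 11392790), Ms4a4c (11404770 to 11427246), Ms4a4b (11443553 to 11467055), Ms4a6c (11469366 to 11482192), and Ms4a6b (11516512 to 11531256) follow each other on the plus strand. Tmem176a (48840919 to 48847071, plus strand) and Tmem176b (48833818 to 48841496, minus strand) face away from each other on chromosome 6 and overlap by 578 bases, of which 81 bases are exonic in both. These 81 bases are 2.13% of the exons of Tmem176a and 3.42% of those of Tmem176b.

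The promoters of the Tmem176 pair are shown because both genes start within the same stretch, and those of Ms4a8a, Ms4a4b, and Ms4a4c because the first 2 of these genes differed most between groups and the last is the closest relative of Ms4a4b. Each window runs from 250 bases before to 50 bases after an annotated start, 5′ to 3′ on the strand of the gene, from RefSeq on GRCm38.p6. Windows were present for 9 of the 10 genes, 13 windows in all, with Ms4a6d as the exception. Capitals mark GAGGAAG or its reverse complement (a PU.1 type motif) in the Tmem176 windows and AGAACA (the hexamer bound by the glucocorticoid receptor) in the Ms4a windows. They also mark the reverse complement of TGTGGT (a RUNX motif) in Ms4a4c and TATAAA in Ms4a4b. TATAAA has the letters of the core promoter box, and its match lies at position -140 from the annotated start.
Tmem176a, window 1 of 2, chr6:48841233-48841532, plus strand: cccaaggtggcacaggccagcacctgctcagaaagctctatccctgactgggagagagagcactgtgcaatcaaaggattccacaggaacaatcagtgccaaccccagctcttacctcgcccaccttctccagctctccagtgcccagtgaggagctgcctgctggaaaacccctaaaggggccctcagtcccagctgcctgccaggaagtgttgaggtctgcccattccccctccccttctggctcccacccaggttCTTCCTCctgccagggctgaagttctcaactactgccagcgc
Tmem176b, window 2 of 3, chr6:48841325-48841624, minus strand: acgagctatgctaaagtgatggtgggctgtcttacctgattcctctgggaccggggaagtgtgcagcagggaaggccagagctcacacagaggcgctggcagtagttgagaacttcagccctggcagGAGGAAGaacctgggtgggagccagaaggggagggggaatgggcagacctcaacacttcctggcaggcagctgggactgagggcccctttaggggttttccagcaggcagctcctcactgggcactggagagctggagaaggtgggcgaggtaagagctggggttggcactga
Ms4a8a, chr19:11081054-11081353, minus strand: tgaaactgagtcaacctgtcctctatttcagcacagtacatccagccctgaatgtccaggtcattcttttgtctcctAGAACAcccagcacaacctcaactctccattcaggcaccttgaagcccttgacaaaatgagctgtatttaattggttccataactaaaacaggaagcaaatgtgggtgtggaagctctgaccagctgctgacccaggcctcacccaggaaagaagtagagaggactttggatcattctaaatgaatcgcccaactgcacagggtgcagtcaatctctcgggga
Ms4a4b, chr19:11443308-11443607, plus strand: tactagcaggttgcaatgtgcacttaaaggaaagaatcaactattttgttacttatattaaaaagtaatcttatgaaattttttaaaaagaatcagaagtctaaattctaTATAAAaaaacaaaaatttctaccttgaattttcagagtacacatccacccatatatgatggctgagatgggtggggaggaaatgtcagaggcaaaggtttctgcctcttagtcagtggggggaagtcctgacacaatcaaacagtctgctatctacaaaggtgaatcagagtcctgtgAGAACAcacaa
Ms4a4c, chr19:11407411-11407710, plus strand: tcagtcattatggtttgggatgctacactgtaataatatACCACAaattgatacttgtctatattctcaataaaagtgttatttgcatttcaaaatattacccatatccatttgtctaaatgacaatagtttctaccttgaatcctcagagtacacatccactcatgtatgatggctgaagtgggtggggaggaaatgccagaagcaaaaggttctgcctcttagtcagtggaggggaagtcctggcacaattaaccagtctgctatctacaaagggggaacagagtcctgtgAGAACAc

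The Tmem176a and Tmem176b windows shared 208 bases, and GAGGAAG stood at 1 place in them, chr6:48841491-48841497, read from opposite strands. PU.1 (Spi1) is the master transcription factor of myeloid cells. Both strands were searched, and GAGGAAG was in 3 of the 13 windows, of 2 of the 9 genes, and in 13.6% of 32851 windows of all genes. All 3 matches were the same place, chr6:48841491-48841497, in overlapping windows. AGAACA was in 5 of the 13 windows, 1 each of 5 genes (Ms4a8a, Ms4a7, Ms4a4c, Ms4a4b, and Ms4a6b), and in 6233 of the 32851 windows. The matches of Ms4a4b and Ms4a4c, at positions 40 and 44 from the start, are in windows that are 75.0% identical. The full palindromic response element of the glucocorticoid receptor was in none of the 13 windows and in 0.475% of all. TTGCNNAA (a C/EBP motif, 10.8% of all windows) and TTCNNNGAA (a STAT motif, 8.3%) were in none of the 13 windows. TGTGGT was in 1 of the 13 windows and in 16.8% of all windows, and TATAAA was in 1 of the 13 and in 13.6% of all. A match of letters is a description of the sequence, and binding was not measured here.

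Several of these genes resemble each other, which bears on how reads could be assigned. The longest coding sequences of Ms4a4b and Ms4a4c, 681 bases each, were 91.8% identical, and their promoter windows 75.0%. Ms4a6b was 79.6% identical to Ms4a6d and 74.6% to Ms4a6c, while Tmem176a and Tmem176b had 396 of 792 bases in common. Of the 100-base windows of the transcripts of Ms4a4c, 1.66% were also in Ms4a4b, and for Ms4a4b 0.473% were in any other gene. For Ms4a6c, 45.8% were shared with the antisense gene BE692007. The sources used here do not say whether strand was used in counting, so the reads of Ms4a6c and BE692007 are uncertain. Expected counts of Ms4a6c were not whole numbers in most tumors. Reads of the overlap of the Tmem176 pair are uncertain too, although the expected counts of both genes were whole numbers in every tumor.

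**Figure D1:**
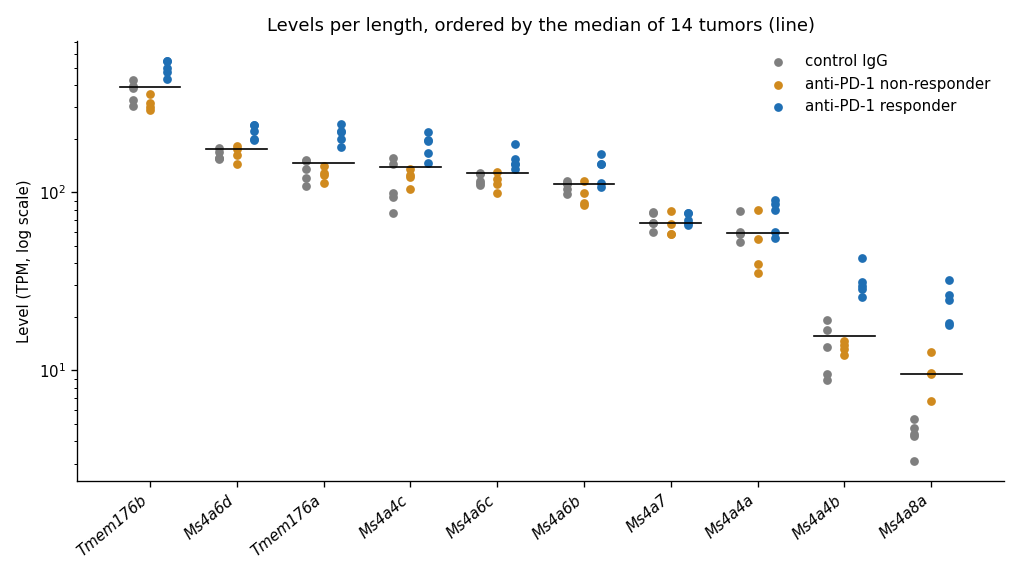
Level of each gene in TPM (vertical log axis) in 14 tumors, ordered by the median over all tumors (black line). Points are tumors, coloured by group. Tmem176b stands above all other genes in every tumor, and Ms4a4b and Ms4a8a are lowest with the points of responders at the top.

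The levels of the 10 genes spanned a wide range. They are given per length, in TPM, which are scaled by gene length and library total and allow genes to be compared within a tumor. Tmem176b was highest, with a median of 389.87 TPM over 14 tumors, and its lowest tumor (290.82) was above the highest tumor of Ms4a6d (239.98). Ms4a6d, Tmem176a, Ms4a4c, Ms4a6c, and Ms4a6b followed with medians of 176.18, 145.56, 139.45, 127.75, and 111.79 TPM, and the ranges of neighbours overlapped. Ms4a7 (median 66.985 TPM) was below Ms4a6b in 14 of 14 tumors and without overlap of the ranges. Ms4a7 was above Ms4a4a (59.38 TPM) in only 9 of 14 tumors. Ms4a4b (15.675 TPM) and Ms4a8a (9.595 TPM) were lowest. Ms4a4b was above Ms4a8a in 14 of 14 tumors, although the ranges overlapped. The sum of the 10 genes was 999.7 to 1277 TPM under control IgG, 1501 to 1806 among responders, and 981.8 to 1226 among non-responders. On the log2(TPM + 1) scale the median of all genes was also higher in responders, by 0.17 over non-responders and 0.09 over control IgG. The sums are therefore not a comparison of groups free of that shift.

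Comparisons between groups used the expected counts, which estimate the fragments of each gene. They were scaled by library total and edgeR's TMM factors to CPM. A gene was called at a Benjamini-Hochberg adjusted p under 0.05 over all genes tested in edgeR's quasi-likelihood test. Between responders and control IgG tumors, 3 of the 10 genes were called, all higher, and 13.2% of all genes were called (7.88% higher, 5.3% lower). Between responders and non-responders, 4 were called, all higher, and 9.9% of all genes were called (5.08% higher, 4.82% lower). Between non-responders and control IgG tumors, edgeR called none of the 10 (0.0% of all genes), 1 had an unadjusted p under 0.05, and DESeq2 called 1, which was Ms4a8a. Of all genes, 758 had an unadjusted p under 0.05 in edgeR and DESeq2 called 16. Responders did not overlap with control IgG tumors for 3 of the 10 genes, all higher, against 15.1% of all genes (8.34% higher). They did not overlap with non-responders for 4, all higher, against 12.8% of all genes (6.8% higher). Non-responders did not overlap with control IgG tumors for 1, higher, against 1.25% of all genes (0.718% higher). In TPM these counts were 6, 7, and 1, all higher, against 14.5%, 16.8%, and 1.46% of all genes (12.1%, 15.4%, and 0.362% higher). The median log2 fold change of the 10 genes was 0.30, 0.29, and 0.09 in these comparisons, and that of all genes tested was -0.01, 0.01, and 0.01. Without 14R, 5 of the 10 genes were called over control IgG, beside 1816 of all 16203 tested. Without 33R the same count of 4 was called over non-responders, beside 793 of all 16521 tested. The comparisons share tumor groups, and the genes were chosen with these values known, so nothing is read from the counts.

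Ms4a8a, which is induced in alternatively activated and tumor-associated macrophages, had the largest fold change of the 10 genes. Its level in control IgG tumors was 2.84 CPM in 14L, 3.61 in 14R, 3.05 in 16R, 3.71 in 17R, and 2.22 in 20R. In responders it was 20.5 CPM in 24L, 12.2 in 26R, 16.6 in 30L, 16.0 in 30R, and 11.6 in 35L. In non-responders it was 8.92 CPM in 29L, 7.25 in 32R, 6.43 in 33L, and 6.27 in 33R. The groups did not overlap, and non-responders lay between control IgG tumors and responders. The means were 3.09 ± 0.609 CPM (SD, n = 5), 15.4 ± 3.60 (n = 5), and 7.22 ± 1.21 (n = 4). The log2 fold change was 2.32 ± 0.19 (SE) over control IgG and 1.09 ± 0.19 over non-responders, and both were called in all alternatives. Between non-responders and control IgG it was 1.23 ± 0.19, which edgeR did not call. The expected counts behind Ms4a8a were 97 to 885 per tumor, the lowest of the 10 genes.
Ms4a4b, which is found on T cells and associates with the costimulatory receptor GITR (Tnfrsf18), was also higher in responders. In control IgG tumors it was 14.5 CPM in 14L, 14.8 in 14R, 6.86 in 16R, 11.1 in 17R, and 7.63 in 20R. In responders it was 32.1 CPM in 24L, 19.5 in 26R, 24.1 in 30L, 20.3 in 30R, and 22.8 in 35L. In non-responders it was 11.6 CPM in 29L, 10.7 in 32R, 10.6 in 33L, and 15.8 in 33R. Every responder was above every other tumor, while control IgG tumors and non-responders overlapped. The log2 fold change was 1.11 ± 0.22 (SE) over control IgG and 0.97 ± 0.23 over non-responders, against 0.14 ± 0.23 between non-responders and control IgG. The call over non-responders was lost without responder 24L (0.84) and without non-responder 32R (0.91). The value between non-responders and control IgG turned its sign without 33R (-0.02).

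Ms4a4c, the neighbour and closest relative of Ms4a4b, was 38.4 ± 13.1 CPM (SD, n = 5) in control IgG tumors, 56.3 (43.8 to 71.4, n = 5) in responders, and 46.0 ± 14.7 (n = 4) in non-responders. The groups overlapped in CPM. Its log2 fold change was 0.55 ± 0.22 (SE) over control IgG and 0.29 ± 0.24 over non-responders, and neither was called. Tumor 33R, at 68.0 CPM, stood above the other non-responders at 37.3 to 39.5. Without 33R the log2 fold change over non-responders was 0.56, not called, and that of non-responders over control IgG went from 0.26 to -0.0035. It was 0.19 over non-responders without 24L. Without control IgG tumor 14R, Ms4a4c was called over control IgG, at a log2 fold change of 0.76. It was also called over control IgG in 3 of 12 alternatives, which were the length correction and both TPM scales, and over non-responders in 2 of 12, both TPM scales. In TPM the responders (145.45 to 219.36) were above all non-responders (104.6 to 134.92).

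**Figure D2:**
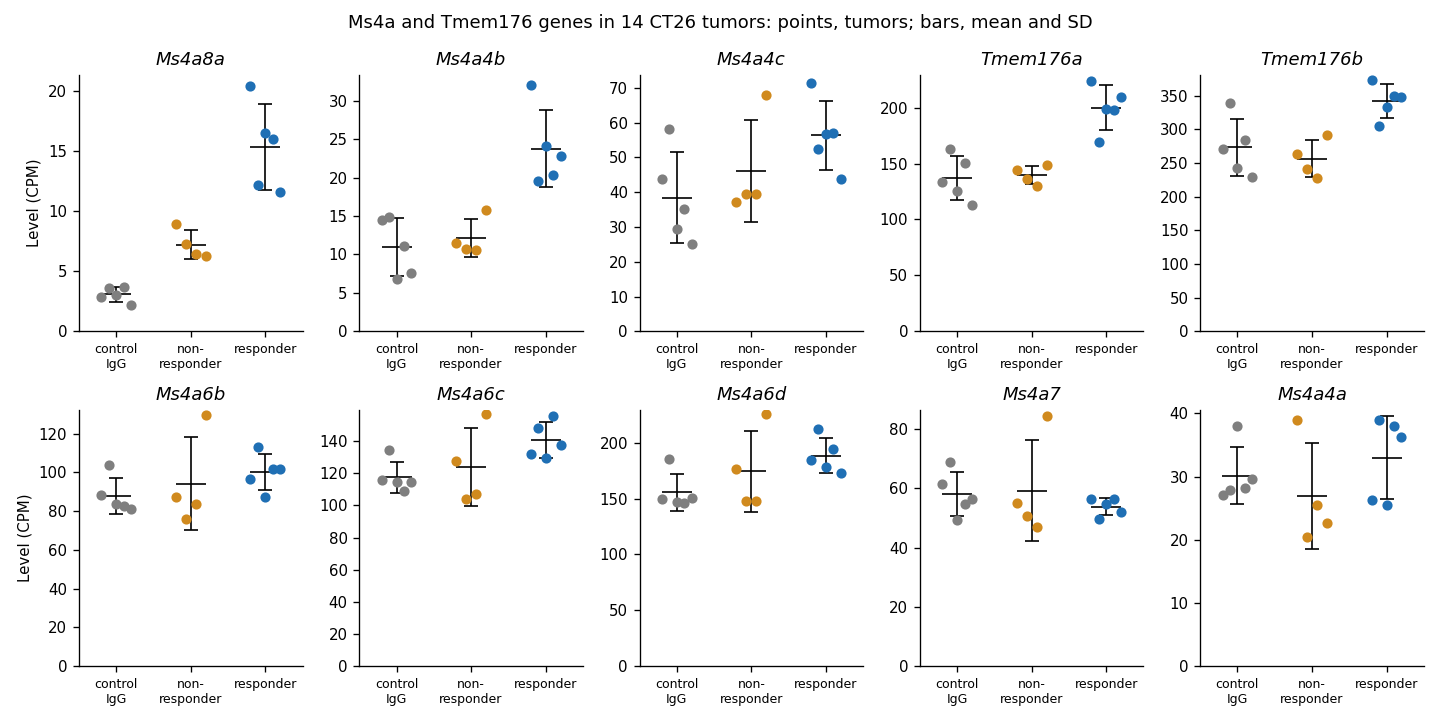
CPM of each gene (vertical axes, from 0) in control IgG tumors (grey), anti-PD-1 non-responders (orange), and anti-PD-1 responders (blue). Points are tumors and bars are the mean and SD. For Ms4a8a the 3 groups do not overlap, for Ms4a4b and Tmem176a the responders stand above all other tumors, and for Ms4a6b, Ms4a6c, Ms4a6d, Ms4a7, and Ms4a4c the highest non-responder stands alone.

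The Tmem176 pair differed from control IgG by less than Ms4a8a and Ms4a4b. Tmem176a was 133 CPM in 14L, 163 in 14R, 125 in 16R, 151 in 17R, and 113 in 20R of the control IgG tumors. In responders it was 224 CPM in 24L, 169 in 26R, 198 in 30L, 198 in 30R, and 210 in 35L. In non-responders it was 144 CPM in 29L, 136 in 32R, 130 in 33L, and 149 in 33R. All responders were above all other tumors, and the lowest responder (169) was close to the highest control IgG tumor (163). The log2 fold change was 0.54 ± 0.10 (SE) over control IgG, 0.52 ± 0.11 over non-responders, and 0.03 ± 0.11 between non-responders and control IgG. The first and second were called in all alternatives. The third turned its sign under the TPM scale (-0.06) and the length correction (-0.03), and without 16R, 20R, or 33R.

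Tmem176b, the partner of Tmem176a, was 271 CPM in 14L, 339 in 14R, 243 in 16R, 284 in 17R, and 229 in 20R of the control IgG tumors. In responders it was 374 CPM in 24L, 304 in 26R, 333 in 30L, 349 in 30R, and 348 in 35L. In non-responders it was 264 CPM in 29L, 242 in 32R, 228 in 33L, and 292 in 33R. Responders were above all non-responders but overlapped in CPM with control IgG tumor 14R. In TPM the lowest responder, at 430.58, was above 14R, at 427.0. The log2 fold change was 0.41 ± 0.11 (SE) over non-responders, which was called, and 0.32 ± 0.11 over control IgG, which was not. The call over non-responders was lost when any of 24L, 30L, 30R, 32R, 33L, and 35L was left out, with log2 fold changes of 0.38 to 0.42 in these 6 fits. The call over control IgG was gained without 14R, at a log2 fold change of 0.42, and in 7 of 12 alternatives, DESeq2 among them.

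**Figure D3:**
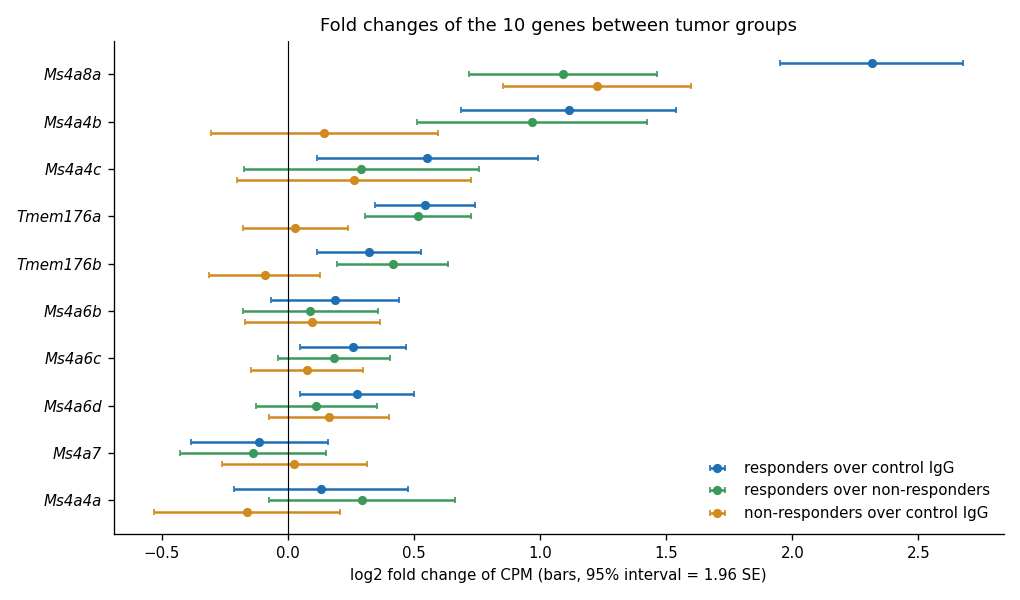
Log2 fold change of CPM (horizontal axis) of each gene in the 3 comparisons, with 95% intervals from the standard error. Ms4a8a and Ms4a4b have the largest values, and the intervals of Ms4a7, Ms4a4a, and Ms4a6b include 0 in all 3 comparisons.

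The Ms4a6 genes, which macrophages express, differed less. Ms4a6c was 118 ± 9.73 CPM (SD, n = 5) in control IgG tumors, 141 ± 11.1 (n = 5) in responders, and 124 ± 24.3 (n = 4) in non-responders. Ms4a6d was 156 ± 16.5, 188 ± 15.6, and 174 ± 36.5 CPM in the same order. Ms4a6b was 88.0 ± 9.26, 100.1 ± 9.27, and 94.1 ± 24.0 CPM. Their log2 fold changes over control IgG were 0.26 ± 0.11 (SE), 0.28 ± 0.12, and 0.19 ± 0.13, and over non-responders 0.18 ± 0.11, 0.11 ± 0.12, and 0.09 ± 0.14. None was called, and the groups overlapped in CPM. Over control IgG, Ms4a6c was called in 5 of 12 alternatives and Ms4a6d in 4, both TPM scales among them. Over non-responders all 3 were called on both TPM scales and in no other alternative, with log2 fold changes of up to 0.41, 0.40, and 0.47. Without 33R the values over non-responders were 0.33, 0.28, and 0.30, and without 32R they were 0.11, 0.04, and -0.0011, and none of these was called. In TPM, the responders of Ms4a6c (134.61 to 187.48) and Ms4a6d (197.64 to 239.98) were above all other tumors. On that scale the median of all genes also moved by 0.17 on the log2 scale between responders and non-responders.

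Ms4a7, a marker of tissue and tumor macrophages, was the only gene of the 10 with a negative log2 fold change in responders. It was 58.1 ± 7.42 CPM (SD, n = 5) in control IgG tumors, 53.7 ± 2.86 (n = 5) in responders, and 59.2 ± 17.1 (n = 4) in non-responders, and all groups overlapped. The log2 fold change was -0.11 ± 0.14 (SE) over control IgG and -0.14 ± 0.15 over non-responders. Both turned positive on the TPM scale (0.04 and 0.12), and the second did without 33R (0.10). The first was -0.17 without 16R and -0.04 without 14R, and the second was -0.22 without 33L.

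Ms4a4a, a macrophage member that associates with the fungal receptor dectin-1 (Clec7a), was 30.1 ± 4.48 CPM (SD, n = 5) in control IgG tumors, 33.0 ± 6.54 (n = 5) in responders, and 26.9 ± 8.33 (n = 4) in non-responders. Its log2 fold changes were 0.13 ± 0.18 (SE), 0.29 ± 0.19, and -0.16 ± 0.19 in the 3 comparisons, and none was called. With 1 tumor left out these ran from 0.07 (without 26R) to 0.23 (without 16R), from 0.18 (without 32R) to 0.53 (without 29L), and from -0.40 (without 29L) to -0.05 (without 32R), and again none was called. Its responders fell into 25.5 and 26.3 CPM in 30L and 24L and 36.2 to 38.9 in the rest. The tumors of mouse 30 were on both sides, at 25.5 CPM on the left and 38.0 on the right.

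Among the other 11 annotated Ms4a genes, which were found by symbol, 4 had enough counts to be tested, and 2 were called higher in responders over control IgG. Ms4a4d was 3.12 ± 1.54 CPM (SD, n = 5) in control IgG tumors, 8.28 ± 2.25 (n = 5) in responders, and 4.17 ± 0.882 (n = 4) in non-responders. Every responder, from 5.71 CPM in 26R to 10.6 in 24L, was above every other tumor. Its log2 fold change was 1.41 ± 0.30 (SE) over control IgG (edgeR, adjusted p = 0.00791) and 0.99 ± 0.32 over non-responders (edgeR, adjusted p = 0.0622). Ms4a1, which encodes the B cell antigen CD20, had 0 to 9 counts under control IgG, 8 to 27 among responders, and 1 to 5 among non-responders. Its log2 fold change over control IgG was 2.49 ± 0.70 (SE; edgeR, adjusted p = 0.0300), and of the 6 fits without 1 tumor in which it passed the filter, 3 lost the call (2.17 without 20R). Over non-responders it was 2.13 ± 0.74 (edgeR, adjusted p = 0.0802).

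Ms4a2, the beta chain of the mast cell IgE receptor, was 0.448 to 1.21 CPM over the 14 tumors and was not called in any comparison. Ms4a14 was 1.01 to 3.01 CPM and was not called either. The remaining 7 (Ms4a3, Ms4a5, Ms4a10, Ms4a12, Ms4a13, Ms4a15, and Ms4a18) had at most 6 counts in any tumor, and Ms4a10, Ms4a13, and Ms4a18 had 0 in all. For comparison, 3 counts, taken as the limit of detection, were 0.0619 to 0.0903 CPM without the TMM factor; this covers counting error only. Over non-responders edgeR called none of the 4, with 2 at an unadjusted p under 0.05 and 2 called by DESeq2. Between non-responders and control IgG edgeR called none, with none at an unadjusted p under 0.05 and none called by DESeq2.

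The partners and regulators of these proteins were taken from short lists. Of 4 genes of dectin-1 signalling, Syk, the kinase of the pathway, rose in responders over control IgG (log2 fold change 0.42 ± 0.12 SE; edgeR, adjusted p = 0.0329), and Clec7a itself was 0.15 ± 0.22. None of the 4 was called over non-responders in edgeR, with 1 at an unadjusted p under 0.05 and none in DESeq2. Tnfrsf18 rose over control IgG (0.67 ± 0.19; adjusted p = 0.0279) and was 0.51 ± 0.20 over non-responders (adjusted p = 0.109). Trem2, a lipid receptor of macrophages, was lower in responders than in non-responders (-0.50 ± 0.14; adjusted p = 0.0410). Without 33R it was -0.28 and not called, and its partner Tyrobp, at 0.15 with all tumors, was called at 0.33. With 1 tumor left out, the calls of Syk and Tnfrsf18 over control IgG were lost in 7 and 5 of 10 fits (lowest 0.34 without 24L and 0.58 without 20R), and that of Trem2 in 7 of 9. Over control IgG neither gene of its complex was called in edgeR, with 2 at an unadjusted p under 0.05 and none in DESeq2.

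Of 8 inflammasome genes, 2 rose and 1 fell in responders in each comparison, and 1 of those that rose differed between the comparisons. Gsdmd, the pore former of pyroptosis, rose over control IgG (0.56 ± 0.10 SE; edgeR, adjusted p = 0.00245) and over non-responders (0.52 ± 0.10; adjusted p = 0.0114), and Aim2, a DNA sensor, fell by 0.41 and 0.40 (adjusted p = 0.0246 and 0.0439). Casp1, the protease of the complex, rose over control IgG (0.39 ± 0.11; adjusted p = 0.0361) and was 0.27 ± 0.12 over non-responders (adjusted p = 0.170). Nlrp3, the sensor that TMEM176B restrains, rose over non-responders (0.61 ± 0.15; adjusted p = 0.0256) and was 0.14 ± 0.14 over control IgG. The calls of Gsdmd held whichever tumor was left out. Those of Casp1 and Aim2 over control IgG were lost in 6 and 3 of 10 fits (weakest 0.32 without 16R and -0.34 without 20R). Over non-responders, that of Aim2 was lost in 7 of 9 (-0.32 without 33R) and that of Nlrp3 without 24L or 33R (0.51 without 33R).

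The glucocorticoid receptor gene Nr3c1 was 0.06 ± 0.09 (SE) over control IgG and 0.17 ± 0.10 over non-responders. Of 7 genes of the receptor and its targets, Fkbp5 (0.73 ± 0.20; edgeR, adjusted p = 0.0281) and Zbtb16 (1.74 ± 0.36; adjusted p = 0.00647) rose and Sgk1 fell by 0.80 (adjusted p = 0.0192) over control IgG. None was called over non-responders in edgeR, with 1 at an unadjusted p under 0.05 and none in DESeq2. Of 6 transcription factors, Spi1, which encodes PU.1, rose over control IgG (0.36 ± 0.09; adjusted p = 0.0183) and over non-responders (0.33 ± 0.10; adjusted p = 0.0420). Irf8, a factor of dendritic cells and monocytes, rose over control IgG (0.63 ± 0.16; adjusted p = 0.0188). With 1 tumor left out, the calls of Zbtb16 and Sgk1 held, and that of Fkbp5 was lost in 6 of 10 fits (lowest 0.65 without 14R). Those of Spi1 and Irf8 over control IgG were lost without 20R or 24L (0.29 and 0.49 without 24L), and that of Spi1 over non-responders in 7 of 9 fits (0.26 without 24L).

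Markers of some leukocytes, T cells above all, also rose in responders, while few of macrophages, neutrophils, and mast cells were called. The part of cell content in the results was not tested. T cell genes rose in 11 of 11 cases over control IgG and in 10 of 11 over non-responders, with a summed level of 28.5 to 61.8 CPM under control IgG, 65.6 to 119 among responders, and 36.7 to 45.7 among non-responders. Genes of conventional dendritic cells rose in 7 of 9 and 6 of 9 cases, with sums of 25.9 to 42.2, 54.1 to 76.3, and 29.5 to 37.8 CPM. NK cell genes rose in 6 of 6 tested and 1 of 6 (17.1 to 28.1, 37.9 to 64.0, and 23.0 to 36.7 CPM), and Klra8 was at 0 in all tumors. Of 9 monocyte genes, 4 rose and 1 fell over control IgG and 2 rose over non-responders (432.6 to 606.2, 779.4 to 912.3, and 477.3 to 636.9 CPM). Of 12 macrophage genes, Adgre1 (F4/80) alone rose in both comparisons (0.35 ± 0.10 SE, adjusted p = 0.0278, and 0.51 ± 0.10, adjusted p = 0.0132, edgeR), with sums of 4090 to 4922, 5061 to 5806, and 4031 to 5949 CPM. With 1 tumor left out, the T cell genes called were 5 to 11 over control IgG (5 without 20R or 24L) and 5 to 10 over non-responders (5 without 24L, 6 without 33R). Those of dendritic cells were 4 to 8 and 3 to 7, and those of NK cells 3 to 6 and 0 to 2, with 24L among the tumors that gave the lowest count in each. The call of Adgre1 over control IgG was lost in 5 of 10 fits (0.29 without 30R).

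Of 8 B cell genes, 4 were tested and 2 rose in both comparisons (4.89 to 6.62, 10.03 to 14.64, and 4.93 to 8.72 CPM). Mast cell genes were called in 0 of 8 and 1 of 8 cases (90.4 to 132.1, 70.8 to 129.6, and 93.2 to 127.8 CPM). The latter was Gata2, lower and lost in 6 of 9 fits without 1 tumor. Of 7 neutrophil genes, Csf3r alone was called, higher in both comparisons (44.1 to 105.7, 42.5 to 107.6, and 45.6 to 145 CPM). The median log2 fold change of the 7 was negative, at -0.34 over control IgG and -0.64 over non-responders. The first of the mast cell counts compares with 2 at an unadjusted p under 0.05 and 1 in DESeq2. Skin epidermis genes spread from 7.40 to 744 CPM under control IgG, 11.99 to 1027 among responders, and 142 to 309 among non-responders, and none of 10 was called or had an unadjusted p under 0.05. Of 10 genes of colon epithelium and carcinoma, which check the label of the cell line, 7 were tested. Krt20 reached 19617 counts, while Cdx1 was at 0 in all tumors, Vil1 had at most 8 counts, Muc2 at most 4, and Cdx2 at most 31. Cdx2 fell over control IgG (by 1.97; adjusted p = 0.0303; lost in 7 of 10 fits without 1 tumor, and -3.09 without 30L) and none was called over non-responders, with 1 at an unadjusted p under 0.05 and 1 in DESeq2. Of the 111 genes of all lists that were tested, edgeR called none between non-responders and control IgG, with 13 at an unadjusted p under 0.05 and none in DESeq2. The mean fragment length, estimated from gene lengths, was 268.7 to 277.7 bases under control IgG, 269.5 to 277.0 among responders, and 277.5 to 287.8 among non-responders, and its part was not tested beyond the length correction.

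**Figure D4:**
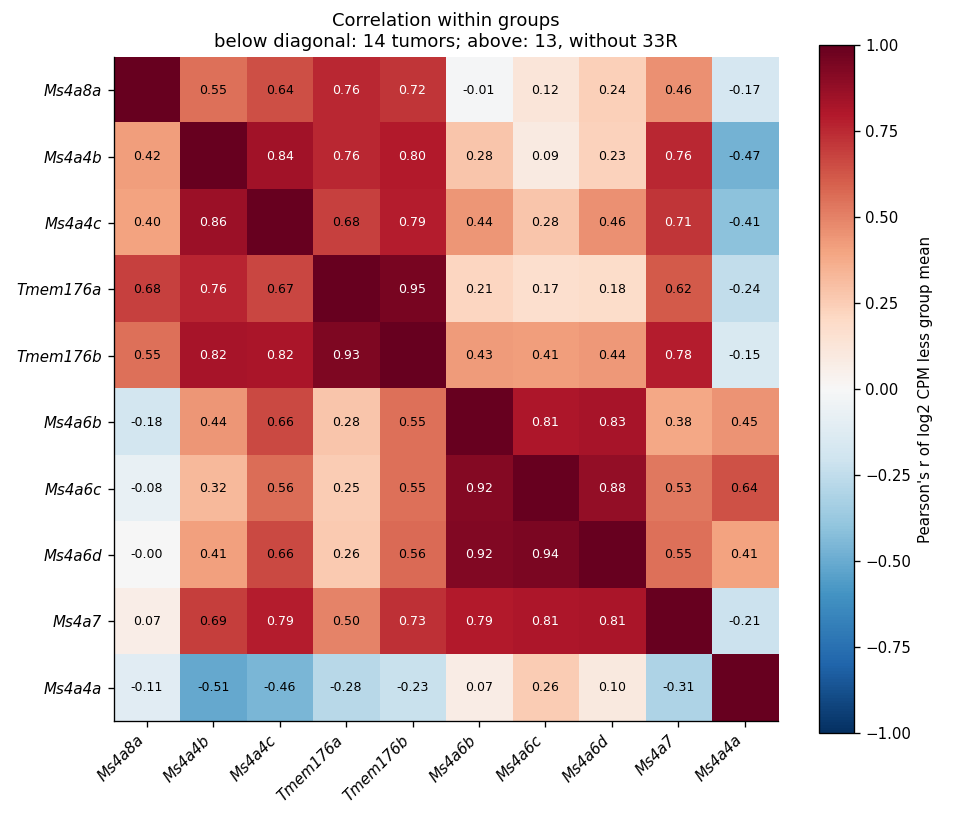
Pearson's r between genes over tumors, for log2 CPM less the mean of the group, with 14 tumors below the diagonal and 13 above it, without 33R. Tmem176a and Tmem176b form a pair (0.934), and so do the 3 Ms4a6 genes (0.916 to 0.944), while below the diagonal Ms4a4a is at most 0.257 with any other gene.

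How the genes varied together was described within groups, after subtracting the group mean from log2 CPM, over 14 tumors that share libraries between genes. Tmem176a and Tmem176b correlated at 0.934 and Ms4a4b and Ms4a4c at 0.856. Ms4a6c and Ms4a6d correlated at 0.944, Ms4a6b and Ms4a6d at 0.923, and Ms4a6b and Ms4a6c at 0.916. Tumor 33R was high for the Ms4a6 genes and Ms4a7. Without it the r of Ms4a6b and Ms4a7 went from 0.794 to 0.384, and that of Ms4a6c and Ms4a7 from 0.805 to 0.528. The r of the Tmem176 pair was 0.952 without 33R and that of Ms4a4b and Ms4a4c 0.843. On the TPM scale the 2 values were 0.949 and 0.758, and Ms4a6b and Ms4a6d correlated at 0.611. Ms4a8a correlated with Tmem176a at 0.680 and with Ms4a6b at -0.182. Ms4a4a correlated with Ms4a4b at -0.512.

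The genes most like 4 of the members, among 12204 genes, were found by the same within-group r over 14 tumors. For Ms4a4b they were Klrk1 (0.969), which encodes the activating receptor NKG2D, the chemokine Ccl5 (0.948), the chemokine receptor Cxcr6 (0.938), Fgl2 (0.931), and H2-T23 (0.929). All of these kept an r of at least 0.918 without 33R. For Tmem176b they were Gm8773 (0.954), Plac8 (0.924), Ifitm1 (0.905), the lymphotoxin gene Ltb (0.898), and Ifitm3 (0.877). For Ms4a8a they were Cebpd (0.921), a C/EBP transcription factor, Itpk1 (0.907), Shisa5 (0.886), Cd38 (0.885), and Pfkp (0.859). Cebpd had an r of only 0.276 when group means were kept, whereas Cd38 had 0.936. For Ms4a7 they were M6pr (0.957), which sorts lysosomal enzymes, Pea15a (0.945), Akr1c13 (0.936), Bfar (0.935), and Atp5k (0.927). These fell to between 0.780 and 0.894 without 33R.

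The means of the cell type lists gave a further description. Ms4a4b correlated within groups with the NK cell list, which holds Klrk1, at 0.881 and the T cell list at 0.817, and without 33R at 0.863 and 0.913. Its r with the monocyte list was 0.772 and with the dendritic cell list 0.755. Ms4a4c correlated with the NK cell list at 0.863 and the monocyte list at 0.832, and without 33R at 0.824 and 0.894. Tmem176a and Tmem176b correlated with the monocyte list at 0.659 and 0.762. In the same order they were at 0.688 and 0.628 with the T cell list and at 0.620 and 0.678 with the NK cell list. Ms4a4a had the highest r with the macrophage list of the 10 genes (0.536) and the lowest with the NK cell list (-0.726). Without 33R, Ms4a4a was at 0.534 with the macrophage list and Ms4a6c and Ms4a6d were above it. Ms4a7 correlated with the macrophage list at 0.142 and with Trem2 and Tyrobp at 0.869, and these were 0.368 and 0.531 without 33R. These tumors also share cell content, so r does not place a gene in a cell type.

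**Figure D5:**
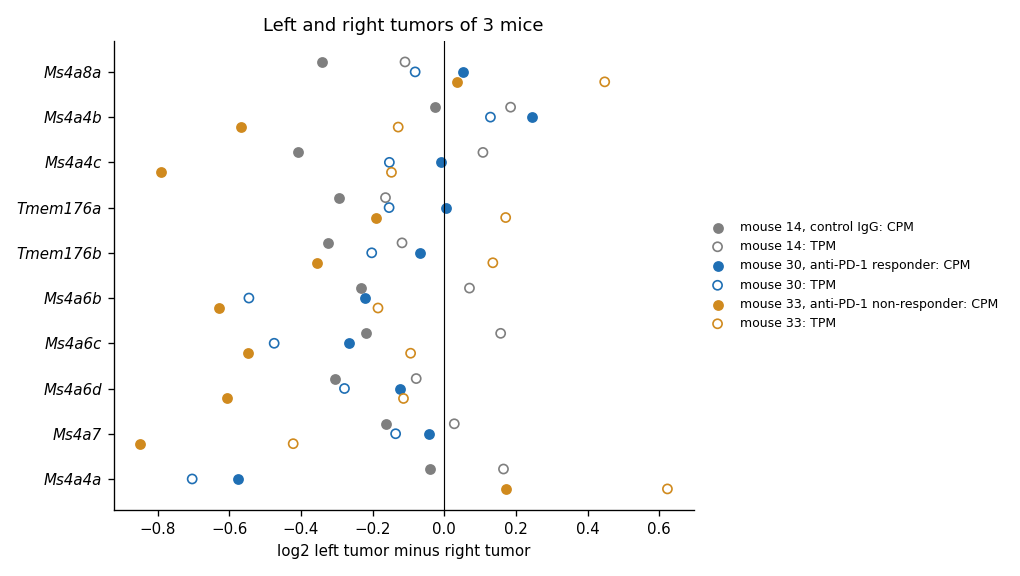
Log2 difference of the left from the right tumor (horizontal axis) of mice 14, 30, and 33, for each gene, on the CPM scale (filled) and on log2(TPM + 1) (open). In CPM all points of mouse 14 and most of mouse 33 are left of 0, and several change sides in TPM.

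The left and right tumors of a mouse show how far tumors of the same animal and treatment can differ. In mouse 14 (control IgG) all 10 genes were lower on the left in CPM, by 0.03 to 0.41 on the log2 scale, with a median absolute difference of 0.262. In mouse 30 (responder) the median was 0.0961, and Ms4a4a differed most, at -0.57. In mouse 33 (non-responder) the median was 0.559, 8 of 10 genes were lower on the left, and Ms4a7 differed most, at -0.85. For 8 of the 10 genes in mouse 33, 6 in mouse 14, and 4 in mouse 30, the difference was larger than the SD between tumors of the group. That SD is of single tumors and includes both tumors of the pair. Differences of 2 tumors spread more widely than single tumors, so nothing is read from these counts. Mice 14 and 33 hold 14R and 33R, which stood apart over all genes. The chi-square per gene of the pair was 71.0 in mouse 14, 179.4 in mouse 33, and 37.6 in mouse 30. Ms4a8a differed by 0.05 in mouse 30 and 0.04 in mouse 33. On log2(TPM + 1), Ms4a8a of mouse 33 differed by 0.45 and Ms4a7 by -0.42. With 1 mouse per group these differences were not tested.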

How the data were processed

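Bulk RNA-seq of 14 tumors was analysed, with groups from the sample labels and mouse and flank from the tumor names. The methods describe alignment to mm10 with STAR and quantification with RSEM, both at default settings, for the cell lines. For the tumors they refer back only to the sequencing, and the submitters' processing notes name STAR and RSEM. The RSEM version and library strand are not given in the sources used here. The authors deposited expected counts, RSEM's estimates of the fragments per gene, in which a fragment matching several genes is shared out, not normalized. Deposited TPM are these estimates per effective length, with an equal total in every tumor. Deposited FPKM were not used. Of 53801 Ensembl genes, 53620 had a symbol in GENCODE M21.

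Expected counts were rounded and fitted in R 4.3.3 with edgeR 4.0.16 (TMM, filterByExpr, quasi-likelihood test, 3 groups, no covariates), which left 16287 genes. Log2 CPM used a prior count of 2. Totals were 33237744 to 48481461. No pair within a group agreed within sampling noise (lowest chi-square per gene 21.2). Nothing says that tumors of a mouse are independent, so p-values measure the spread between tumors. The test was checked on simulated counts. Each gene's longest coding sequence and its transcript windows were taken from GENCODE, and alignments were made with Biopython 1.88.

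The members and all lists were chosen with earlier results of these data known. The genes named are the 10 members, all other genes whose symbol starts with Ms4a, the genes of the lists (some are not reported here), and for Ms4a7, Ms4a8a, Ms4a4b, and Tmem176b the 5 genes with the highest within-group r among those with a mean log2 CPM of at least 1. Values of other members that are singled out, and BE692007, were chosen after they were seen. Alternatives were DESeq2 1.42.0, limma-voom (limma 3.58.1), the same with a random mouse effect, DESeq2 size factors, upper quartile normalization, no filter, a filter of 10 counts in 4 tumors, 1 library per mouse, the compared groups alone, a loess correction for gene length (span 0.5), log2(TPM + 1) and log2(TPM + 0.1), and each tumor left out.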

Additional observations from a re-analysis of the deposited data

Results flagged for a closer look

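In 5 of 42 groups examined (14 tested Ms4a and Tmem176 genes in 3 groups), 1 tumor stood apart by Dixon's ratio at the 95% level, where chance alone flags about 1 in 20 groups. Control IgG tumor 14R had 134.4 CPM of Ms4a6c, against 109.1 to 115.5 in the other tumors of its group, and 185.0 CPM of Ms4a6d, against 146.0 to 150.4. Non-responder 33R had 68.05 CPM of Ms4a4c, against 37.27 to 39.51. Control IgG tumor 16R had 37.97 CPM of Ms4a4a, against 27.06 to 29.66. Responder 24L had 3.006 CPM of Ms4a14, against 1.053 to 1.395.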

How the results depend on the processing

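Ms4a8a and Tmem176a were called in responders, over control IgG and over non-responders, in every fit run. Both genes were chosen on these same values, so calls that held across fits are a description and no independent support. The count of members called over control IgG went from 3 to 6 with 1 library per mouse, with only the compared groups, and with the length correction, to 7 on both TPM scales, and to between 3 and 5 when a tumor was left out (5 without 14R). Over non-responders it went from 4 to 8 on both TPM scales and to between 2 and 4 when a tumor was left out (2 without 24L or 32R). Between non-responders and control IgG it went from 0 to 1 (Ms4a8a) with DESeq2 and with no filter, and stayed at 0 when any tumor was left out. Of all genes, 2147 of 16287 were called over control IgG in the main fit and 2856 of 16463 with 1 library per mouse. With only the compared groups 3043 of 15821 were called, and with the length correction 2658. On log2(TPM + 1) and log2(TPM + 0.1) these were 1827 and 1725, and over non-responders 2160 and 2104. Between non-responders and control IgG, DESeq2 called 16 genes, and 3 of 27325 were called with no filter. For the other Ms4a genes the count over control IgG went from 2 to 1 with only the compared groups and to between 1 and 2 when a tumor was left out. Over non-responders it went from 0 to 2 with DESeq2, with mouse as a random effect, and on both TPM scales, and to 1 with limma-voom, with only the compared groups, and with the length correction. On log2(TPM + 1) the median of all genes moved to 0.17 between responders and non-responders, the calls went from 827 higher and 785 lower to 1969 and 191, and over control IgG from 1284 and 863 to 1522 and 305. The count over non-responders of all genes was 569 to 1978 when a tumor was left out, against 1612, and 689 with only the compared groups and 2973 with mouse as a random effect. Over control IgG it was 1190 to 1944, against 2147, and 2974 with mouse as a random effect. In the mouse fit the estimated correlation between tumors of a mouse was -0.282. A negative value makes the errors of group differences smaller, so calls gained in that fit are not a check on pairing. Of 640 alternative fold changes of the members, 28 turned their sign, 22 of them in 6 genes between non-responders and control IgG, and none of the 28 was of a called value. The cause was not tested. No paired analysis was possible because the groups share no replicate numbers and each mouse is in 1 group. Of the Ms4a genes tested, Ms4a1, with at most 27 counts, has the largest standard errors.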
